A study of Mus musculus with 4 samples.

Results

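Artery-like wells of mouse ear skin were single sorted blood vascular endothelial cells (BECs) in which a set of arterial genes outscored capillary and venous genes. Of the 1536 wells of the series, 631 were kept as BEC wells and 122 of these were artery-like, of which 56 belonged to replicate 1 and 66 to replicate 2. The wells were chosen by their own read counts. A kept well held at least 20000 reads on genes and no more than 8000 detected genes. It had reads of 2 or 3 of the endothelial genes *Pecam1*, *Cdh5* and *Kdr* and was below 100 CPM (read counts scaled to a common total per well) for each of 5 genes of lymphatic, leukocyte and mural cells (*Lyve1*, *Prox1*, *Ptprc*, *Pdgfrb* and *Kcnj8*). Each kept well then received an artery score, a capillary score and a vein score. A score was the mean over 8 genes of the z value of log2(CPM + 1), taken within each replicate, and a well was artery-like when its artery score was the highest by at least 0.25.

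Arteries carry blood from the heart under high and pulsatile pressure, and their endothelium lies on elastic matrix and is coupled by gap junctions to neighbouring cells and to smooth muscle. Arterial identity in endothelium is linked to VEGF and Notch signalling and to transcription factors of the SoxF family, whereas COUP-TFII (*Nr2f2*) marks veins. In skin, small arteries and arterioles set the blood flow into the capillary bed, while leukocytes leave the blood mainly through venules.

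The mice were wild-type C57Bl/6 females of 12 to 26 weeks by the labels (the study's methods give a different adult range), and no genotype or treatment was compared. Cells from ear dermis were sorted as CD31+/CD45-/Lyve1- and processed by Smart-seq2, a plate method with a single cell per well and no molecular identifiers, on plates A and B of each of 2 replicates. The design text describes the replicates as pools of ears from 6 mice, without saying whether both came from the same pool, so p-values may measure only the spread between these samples. Plates of a replicate share their cells' source and are no further replicates.

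The 384 wells of a plate held a median of 182900 and 142100 gene reads in replicate 1 and of 42540 and 40320 in replicate 2 (4 significant digits). Of 1175 wells that passed the limits on reads, genes and endothelial genes, 369 reached 100 CPM of *Pdgfrb* and 385 reached that level of *Kcnj8*, which are genes of pericytes, and these limits removed most of the wells that were left out at this step. Artery-like wells had a median of 134200 reads and 4426 genes in replicate 1 and of 114300 reads and 2682 genes in replicate 2. Drawn down to 20000 reads each, they had a median of 2424 and 1724 genes. The reads per spike-in read had a median of 304 in replicate 1 and 72.7 in replicate 2, against 273 and 130 in capillary-like and 423 and 90.0 in vein-like wells. Vein-like wells had more genes at 20000 reads (median 2983 and 1864), and capillary-like wells 2358 and 1756. The mitochondrial share of reads had a median of 1.91% and 3.15% in artery-like, 1.56% and 2.44% in capillary-like and 1.74% and 3.07% in vein-like wells. The part of these measures in the comparisons was not tested. Each plate sum of artery-like wells was made of 26 to 37 wells and 3195257 to 5979389 reads, and no well gave more than 9.06% of its sum.

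Artery-like wells made up 19.3% of the kept wells (exact binomial 95% interval 16.3 to 22.6, counting error only). By plate the share was 16.7% (1A), 16.6% (1B), 20.1% (2A) and 24.7% (2B). Capillary-like wells were 35.6% of the kept wells in replicate 1 and 16.7% in replicate 2, vein-like wells 20.5% and 22.8%, and wells of no class 27.3% and 38.1%. These shares depend on how the scores were centred. With z values over both replicates together, 36 wells of replicate 1 (10.7%) and 90 wells of replicate 2 (30.6%) were artery-like, and 51.6% and 5.10% capillary-like. The sort and the filters also bear on all of these shares.

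The 8 genes of the artery score describe the wells and are given without a test, because they chose them. *Gja4* and *Gja5* encode connexins of arterial gap junctions. The level of *Gja4* in the sums of artery-like wells was 238, 594, 398 and 531 CPM on plates 1A, 1B, 2A and 2B, with a mean of 63.3 CPM over the plates in capillary-like wells and 8.53 CPM in vein-like wells. For *Gja5* the artery-like levels were 27.0, 59.1, 105 and 81.8 CPM, and no plate of the other classes exceeded 3.10 CPM. The semaphorin *Sema3g* stood at 68.9, 66.5, 105 and 252 CPM, against a mean of 4.13 CPM in capillary-like and 0.220 CPM in vein-like wells. These 3 genes separated the classes on every plate.

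*Hey1*, a transcriptional target of Notch, averaged 383 ± 214 CPM in artery-like wells (SD, n = 4 plates), 136 ± 104 CPM in capillary-like and 14.2 ± 16.9 CPM in vein-like wells, and the ranges of artery-like and capillary-like plates overlapped. *Sox17*, a SoxF transcription factor, averaged 751 ± 198, 297 ± 120 and 254 ± 38.4 CPM in the same order. *Fbln5*, which encodes the elastic fibre protein fibulin 5, averaged 623 ± 166, 37.1 ± 20.2 and 137 ± 45.8 CPM. The non-receptor tyrosine kinase *Bmx* averaged 237 ± 93.2, 9.01 ± 11.9 and 36.8 ± 44.3 CPM. *Efnb2*, the arterial ephrin ligand, averaged 116 ± 73.0, 59.0 ± 53.0 and 10.6 ± 5.10 CPM, and its artery-like plates overlapped with capillary-like ones. All 8 genes thus lay above vein-like wells on every plate, and all but *Hey1* and *Efnb2* above capillary-like wells.

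**Figure D1:**
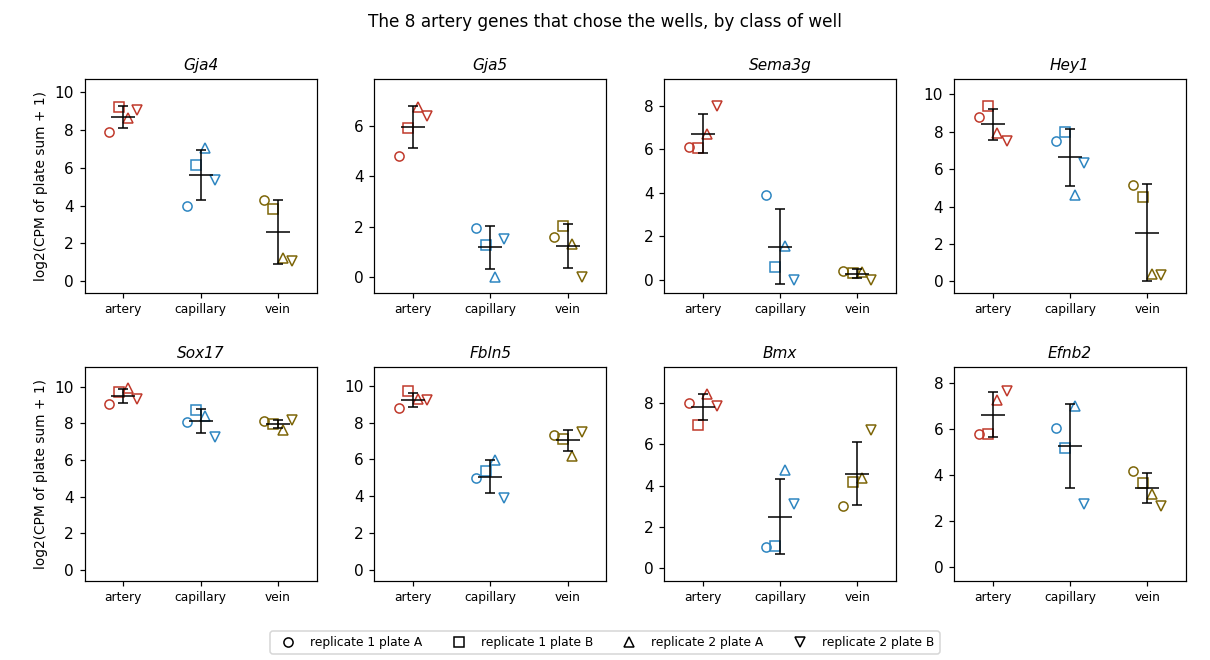
Levels of the 8 genes of the artery score in the plate sums of artery-like, capillary-like and vein-like wells, as log2(CPM + 1). Symbols mark the 4 plates and the black bars the mean and SD over them. The artery-like plates of 6 genes lie above all others, while those of *Hey1* and *Efnb2* overlap with capillary-like plates.

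Within the artery-like wells the arterial genes were unevenly read. Of the 8 genes, a median of 5 had a read in a well, with a range of 1 to 7, and no well had all 8. After drawing to 20000 reads the median was 3, and 3 wells had none of the 8. *Sox17* was then read in 94 of 122 wells, *Fbln5* in 56, *Hey1* in 53, *Bmx* in 48, *Gja4* in 41, *Efnb2* in 40, *Sema3g* in 36 and *Gja5* in 16. *Gja4* and *Gja5* were read together in 3 wells and *Gja4* and *Fbln5* together in 29. These counts of genes and pairs follow the drawing down and are lowered by it, whereas the scores that set the membership used all reads of a well.

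The artery score of the members had a median of 0.52 in replicate 1 and 0.54 in replicate 2, and in 11 of the 122 wells it was below 0, so these were artery-like because their other scores were lower still. The second highest score was the vein score in 39 of 56 wells of replicate 1 and the capillary score in 45 of 66 wells of replicate 2. A margin of at least 0.5 was reached by 79 wells and one of at least 1 by 30 wells. The members nearest to the threshold had margins of 0.2503, 0.2523 and 0.2533, and the wells just outside it had 0.2459, 0.2456 and 0.2414. In all, 55 wells had the artery score highest but by less than 0.25.

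**Figure D2:**
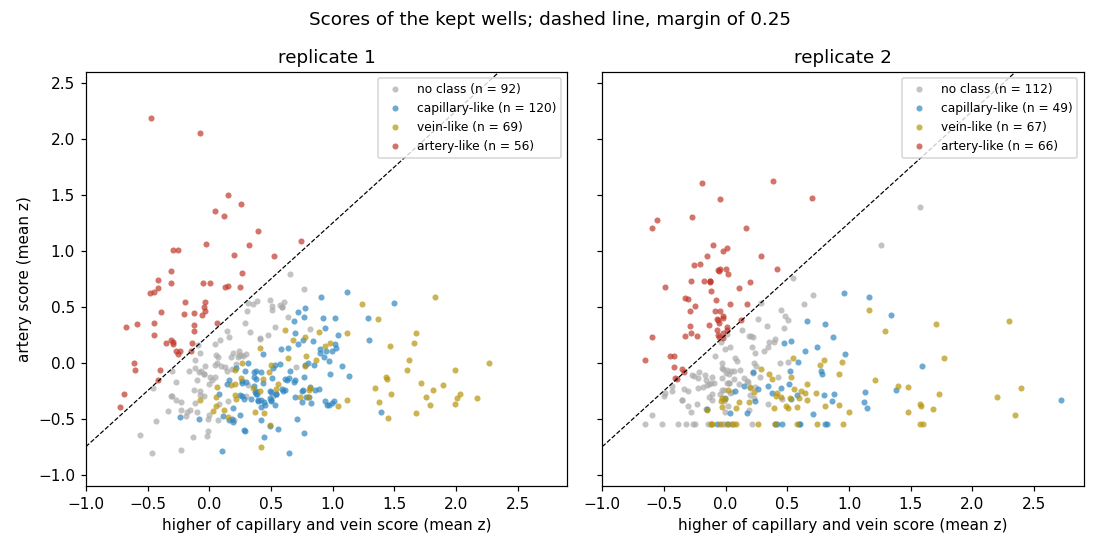
Artery score of every kept well against the higher of its capillary and vein scores (each a mean z value), by replicate and class. The dashed line is the margin of 0.25, and the artery-like wells above it (56 and 66) reach artery scores of 2.19 in replicate 1, where the 2 highest wells stand apart from the others, and 1.62 in replicate 2.

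Artery-like wells were then compared with capillary-like and with vein-like wells on 16295 genes that the rule had not used. Counts were summed per replicate and class, and the sums were compared by the quasi-likelihood test of edgeR, blocked by replicate. No gene passed an adjusted p of 0.05 (0.0% of genes tested against capillary-like and 0.0% against vein-like wells), and the smallest adjusted p was 0.786 and 0.217. At an unadjusted p under 0.05 stood 979 genes (6.01%) and 1048 genes (6.43%). On the same sums, DESeq2's Wald test called 405 genes (195 higher and 210 lower) and 436 genes (195 higher and 241 lower). On log2(CPM + 1) averaged over wells, limma called 9 genes (0.0552%, 8 higher and 1 lower) and 210 genes (1.29%, 28 higher and 182 lower). The genes below are therefore described by their levels on the 4 plates. A gene is called apart when all 4 artery-like plate sums lay above, or all below, the 4 sums of the other class and the mean levels differed at least 2-fold. Against capillary-like wells 170 genes (1.04%) were apart and higher and 258 (1.58%) apart and lower. Against vein-like wells 166 (1.02%) were higher and 357 (2.19%) lower. No p belongs to these counts, the counts of listed genes are to be read beside these shares, and the comparisons share the artery-like sums.

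Genes that other work links to arteries, outside the score, formed a list of 28 genes. Against capillary-like wells 4 were apart and higher (14.3%, beside 1.04% of all genes) and 0 lower, and against vein-like wells 6 were higher (21.4%, beside 1.02%) and 1 lower (*Dkk2*). The median log2 fold change of the list was 1.60 and 1.36, beside -0.05 and -0.04 over all genes tested. Without wells holding at least 100 CPM of the smooth muscle genes *Acta2*, *Tagln* or *Myh11*, which were 20.5% of artery-like, 20.1% of capillary-like and 55.9% of vein-like wells, 2 genes (*Vegfc* and *Clu*) were apart and higher against capillary-like wells and 5 against vein-like wells, all but *Alpl*. The list was drawn up with earlier results of these data known.

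*Vegfc* encodes a growth factor of the VEGF family that binds VEGFR-3 and VEGFR-2. Its levels in artery-like wells were 57.5, 137, 145 and 242 CPM on plates 1A, 1B, 2A and 2B. Capillary-like wells had 15.3, 4.39, 0 and 0 CPM and vein-like wells 2.68, 32.3, 24.5 and 10.3 CPM. Every artery-like plate lay above every other plate. The log2 fold change was 5.34 ± 1.84 (SE) against capillary-like and 3.12 ± 1.57 against vein-like wells, with edgeR adjusted p of 0.786 and 0.775 and limma adjusted p of 0.00633 and 0.0285. By replicate it was 2.35 and 3.44 against vein-like wells. Against capillary-like wells it was 3.23 in replicate 1 and 10.34 in replicate 2. The latter is a difference of log2 CPM that depends on the prior count, since the capillary-like plates of replicate 2 were at 0. The transcript was read in only 17.2% of artery-like wells at 20000 reads, against 2.96% and 8.09% in the other classes. With the 5 excluded genes limited to under 10 CPM, which left 40 artery-like wells, the direction of *Vegfc* against capillary-like wells turned (log2 fold change -3.14).

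*Atp2a3* encodes SERCA3, a calcium pump of the endoplasmic reticulum. It stood at 101.6, 209, 248 and 376 CPM in artery-like wells, at 69.4, 44.1, 82.9 and 1.12 CPM in capillary-like wells and at 32.2, 23.3, 61.4 and 23.4 CPM in vein-like wells, again without overlap. Its mean was 4.73-fold that of capillary-like and 6.66-fold that of vein-like wells, the former by a log2 fold change of 1.43 in replicate 1 and 3.46 in replicate 2, with limma adjusted p of 0.0172 and 0.0103 and edgeR adjusted p of 0.786 and 0.649.

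*Clu*, the secreted chaperone clusterin, was at 1081, 1188, 2494 and 2003 CPM in artery-like wells and at 90.0, 76.8, 956 and 690 CPM in capillary-like wells. Vein-like wells, at 685, 652, 1491 and 1215 CPM, overlapped with the artery-like ones. The difference from capillary-like wells was larger in replicate 1 (log2 fold change 3.76) than in replicate 2 (1.52). *Htra1*, a secreted serine protease, was likewise apart only from capillary-like wells.

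The other listed genes apart from vein-like wells were *Unc5b*, *Mecom*, *Alpl* and *Arl15*. *Unc5b*, a netrin receptor, stood at 84.4, 32.6, 47.9 and 108 CPM in artery-like wells and at no more than 5.70 CPM on any vein-like plate, and capillary-like wells had 60.0, 96.4, 98.3 and 10.4 CPM. It thus set vein-like wells apart from the other classes rather than artery-like wells. The transcription factor gene *Mecom* averaged 151 ± 53.5, 84.7 ± 46.7 and 58.0 ± 16.7 CPM in artery-like, capillary-like and vein-like wells. *Alpl*, tissue-nonspecific alkaline phosphatase, averaged 84.8 ± 70.7, 14.2 ± 24.8 and 0.838 ± 0.770 CPM. *Arl15*, a GTPase of the ARF family, averaged 70.5 ± 47.7 CPM in artery-like and 4.45 ± 5.77 CPM in vein-like wells.

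Further genes of the list were not apart on all plates. *Slc6a6*, the taurine transporter, had 143, 966, 1246 and 949 CPM in artery-like wells, where plate 1A stood as low as the other classes, whose plates ran from 103 to 244 CPM. Its edgeR p was among the 15 smallest in both comparisons, with adjusted p of 0.786 and 0.230. *Stmn2*, a regulator of microtubules, had 25.5, 112, 321 and 359 CPM in artery-like wells, against means of 26.0 ± 26.4 and 35.4 ± 21.5 CPM in capillary-like and vein-like wells. *Cxcl12*, the chemokine of the receptor CXCR4, had similar means in artery-like and capillary-like wells (2682 ± 429 and 2887 ± 416 CPM) and a mean of 1416 ± 507 CPM in vein-like wells. *Tm4sf1*, a tetraspanin-like membrane protein, was near-even at 1727 to 1984 CPM in artery-like and 1552 to 1791 CPM in capillary-like wells.

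**Figure D3:**
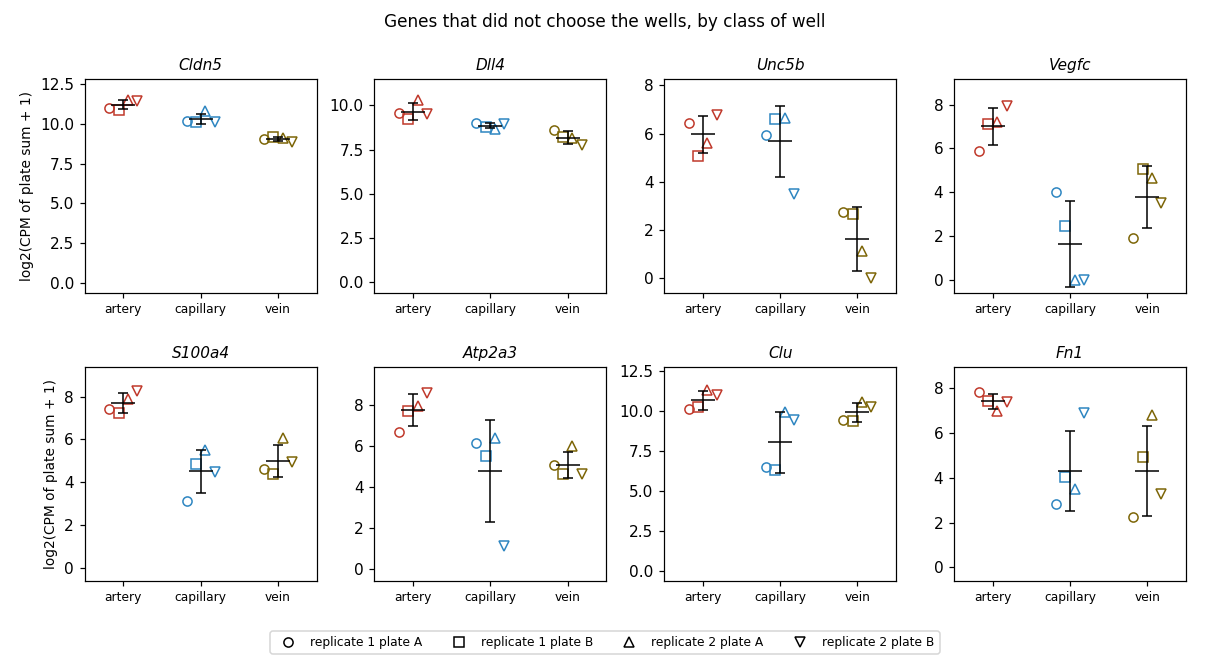
Levels of 8 genes that had no part in choosing the wells, as log2(CPM + 1) of the plate sums, by class. Symbols are the 4 plates and black bars the mean and SD. The artery-like plates of *Cldn5*, *Dll4*, *Vegfc*, *S100a4*, *Atp2a3* and *Fn1* lie above all others. Those of *Unc5b* lie above the vein-like ones and those of *Clu* above the capillary-like ones.

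Claudin 5 (*Cldn5*, chromosome 16, 18776847 to 18778262 on mm10), the main claudin of endothelial tight junctions, had the smallest p against vein-like wells. It stood at 2021, 1891, 2814 and 2791 CPM in artery-like wells, at 1142, 1090, 1754 and 1104 CPM in capillary-like wells and at 519, 584, 553 and 465 CPM in vein-like wells. The 3 classes did not overlap on any plate. Against vein-like wells the log2 fold change was 2.17 ± 0.20 (edgeR adjusted p = 0.217, limma adjusted p = 2.36e-05), and with plate sums and plates as blocks the edgeR adjusted p was 8.42e-05, which counts plates of a shared cell source as replicates. Against capillary-like wells it was 0.97 ± 0.20 (edgeR adjusted p = 0.786), a 1.87-fold difference of means, which is under 2-fold. In the wells left without smooth muscle reads *Cldn5* was apart and higher (2563 against 1265 CPM). Reads of *Cldn5* were found in 94.3% of artery-like, 89.9% of capillary-like and 67.6% of vein-like wells at 20000 reads. Of the 26 junction genes tested, *Cldn5* was the only one apart and higher in either comparison and *Nectin3*, a cell adhesion gene, the only one apart and lower against vein-like wells. Of all genes, 1.02% were apart and higher and 2.19% apart and lower against vein-like wells. *Esam*, a junctional adhesion molecule, had 1349 to 2138 CPM in artery-like wells and overlapped in both comparisons.

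The Notch list of 20 tested genes had 0 genes apart and higher and 1 lower (*Maml1*, a coactivator of Notch transcription) against capillary-like wells, and 1 higher (*Dll4*) and 1 lower (*Dll1*) against vein-like wells. These are 0 or 1 of 20 genes, beside 1.04% higher and 1.58% lower of all genes in the former comparison and 1.02% and 2.19% in the latter. *Dll4*, the endothelial Delta ligand, had 744, 596, 1266 and 720 CPM in artery-like, 518, 432, 410 and 497 CPM in capillary-like and 393, 291, 278 and 213 CPM in vein-like wells. All artery-like plates lay above those of both other classes, by 1.79-fold and 2.83-fold of the means (edgeR adjusted p of 0.786 and 0.649). *Dll4* overlaps the gene model Gm14207, and reads of the pair cannot be told apart with certainty. The share of wells with a read at 20000 reads differed less, at 54.9%, 54.4% and 44.1%. *Notch4* averaged 120 ± 99.2, 82.4 ± 41.1 and 31.3 ± 24.4 CPM, and *Notch1* had 211 to 815 CPM in artery-like wells and overlapped with both other classes. *Jag1* averaged 63.2 ± 19.3 CPM in artery-like wells, above the highest capillary-like plate on 3 of 4 plates, and *Jag2* overlapped fully. *Hey2* was near absent in every class, at no more than 8.82 CPM on any plate.

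Among 30 identity transcription factors, 1 was apart and higher against capillary-like wells (beside 1.04% of all genes) and 2 against vein-like wells, with 1 lower (beside 1.02% and 2.19%). *Sox11* was apart from both classes at 16.7, 9.07, 24.1 and 59.2 CPM, but was read in only 8.20% of artery-like wells at 20000 reads. *Nr2f2*, the venous factor COUP-TFII, averaged 30.9 ± 22.9 CPM in artery-like and 91.0 ± 34.9 CPM in vein-like wells, with overlap on the plates and a limma adjusted p of 0.0331. *Foxc1* was the gene apart and lower. *Sox18* and *Ets2*, at 834 to 1220 and 573 to 1138 CPM, showed no separation. The shear-responsive factor *Klf2* had 476.5 to 757 CPM in artery-like wells, just above 360 to 469 CPM in vein-like wells (1.47-fold of the means) and overlapping with capillary-like wells. *Klf4* averaged 226 ± 112 CPM and overlapped with both.

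Elastic fibre and arterial matrix genes (21 tested) were apart and higher in 4 cases against capillary-like wells (19.0%, beside 1.04% of all genes) and in 1 case against vein-like wells, where 1 was lower (*Vcan*), beside 1.02% and 2.19% of all genes. *Fn1*, fibronectin, was the gene apart from both, at 228, 172, 126 and 164 CPM in artery-like wells, but single plates of the other classes came near, at 118 CPM (capillary-like 2B) and 109 CPM (vein-like 2A). Its log2 fold changes were 4.26 and 3.47 in replicate 1 and 0.99 and 1.05 in replicate 2. Without the wells with smooth muscle reads *Fn1* was apart in neither comparison (201 CPM against 52.6 and 82.3 CPM), and 3 genes of the list were apart from capillary-like and 0 higher than vein-like wells. *Eln*, elastin, had 255, 151, 456 and 212 CPM, above 80.3 to 139 CPM in capillary-like wells and overlapping with 244 to 392.2 CPM in vein-like wells. *Fbn1*, fibrillin 1, averaged 117 ± 73.8 CPM, 10.2-fold the mean of capillary-like wells (log2 fold change 1.77 in replicate 1 and 4.48 in replicate 2), and overlapped with vein-like wells at 301 ± 221 CPM. *Ltbp3*, a binding protein of latent TGF-beta, was the fourth. *Mgp*, matrix Gla protein, averaged 144 ± 77.7, 78.2 ± 40.4 and 118 ± 31.9 CPM in artery-like, capillary-like and vein-like wells and overlapped. The members with the highest level, *Ltbp4* (1179 ± 336, 1011 ± 142 and 1174 ± 376 CPM in the same order) and *Fbln2* (465 ± 197, 404 ± 339 and 450.1 ± 202 CPM), were not apart either. The list's median log2 fold change was 0.29 against capillary-like and -1.25 against vein-like wells. By limma 0 genes of the list passed against capillary-like wells and 3 against vein-like wells (*Fn1* higher, *Fbn1* and *Vcan* lower).

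The 18 basement membrane genes tested included none that was apart and higher, 1 lower against capillary-like and 2 lower against vein-like wells. Of all genes, 1.04% and 1.02% were higher and 1.58% and 2.19% lower in these comparisons. *Hspg2*, perlecan, was lower than in capillary-like wells at 177, 225, 69.5 and 112 CPM against 333, 344, 522 and 307 CPM. *Col15a1*, collagen XV, and the integrin subunit gene *Itga5* were lower than in vein-like wells. *Col15a1* had 37.9, 29.5, 43.5 and 50.8 CPM in artery-like wells against 129, 91.4, 140 and 157 CPM in vein-like wells. *Sparc* and *Itgb1*, the members with the highest levels, overlapped in both comparisons.

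Among 23 vasomotor and coupling genes, *Atp2a3* and *Trpv4*, a calcium-permeable channel, were apart and higher against capillary-like wells. Against vein-like wells *Atp2a3* was higher and *Ptgs1*, cyclooxygenase 1, and the connexin gene *Gjc1* were lower. Of all genes, 1.04% were apart and higher against capillary-like wells, and 1.02% higher and 2.19% lower against vein-like wells. Without the wells with smooth muscle reads, *Atp2a3* and *Trpv4* were no longer apart from capillary-like wells and *Ptgs1* and *Gjc1* no longer apart from vein-like wells, while *Kcnn4*, a potassium channel gene, was apart and higher in both comparisons. *Edn1*, the vasoconstrictor endothelin 1, averaged 535 ± 370 CPM in artery-like wells, with 92.8 CPM on plate 1A and 987 CPM on plate 2A, and was not apart from either class. The nitric oxide synthase *Nos3* averaged 235 ± 104 CPM and the connexin gene *Gja1* 309 ± 81.2 CPM, and both overlapped with each of the other classes. *Ramp2*, a partner of the adrenomedullin receptor, averaged 814 ± 102, 853 ± 293 and 1044 ± 181 CPM in artery-like, capillary-like and vein-like wells. *Cav1*, caveolin 1, had 4407, 4510, 2579 and 3632 CPM and a log2 fold change of 0.85 ± 0.14 against vein-like wells (edgeR adjusted p = 0.578, limma adjusted p = 0.0464), with a capillary-like mean of 4312 ± 1445 CPM.

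Of 15 VEGF, Tie and apelin genes tested, 1 was apart and higher (*Vegfc*) and 1 lower against capillary-like wells. Against vein-like wells 2 were higher (*Dll4* and *Vegfc*) and 1 lower. Of all genes, 1.04% and 1.58% were higher and lower in the former comparison and 1.02% and 2.19% in the latter. The gene apart and lower in both comparisons was *Nrp2*. It encodes neuropilin 2, a coreceptor of VEGF-C and of class 3 semaphorins, and had 23.6, 54.2, 22.9 and 4.35 CPM in artery-like wells. Capillary-like wells had 114, 94.0, 179 and 367 CPM and vein-like wells 60.3, 159, 230 and 128 CPM. The ligand gene *Vegfc* thus had its highest and the coreceptor gene *Nrp2* its lowest level in the same class of wells. *Ptprb*, the phosphatase VE-PTP, overlapped in both comparisons. Of 21 guidance genes, *Unc5b* was apart and higher against vein-like wells and *Slit2*, which stayed under 1 CPM in both classes, lower against capillary-like wells. The ephrin gene *Efna1* averaged 608 ± 80.7, 622 ± 57.1 and 422 ± 83.8 CPM in artery-like, capillary-like and vein-like wells. In the BMP and TGF-beta list (21 tested), *Tgfb2* was higher and *Bmp6* lower against capillary-like wells, and *Bmp4* lower against vein-like wells. The calls of this list and of the guidance list are to be read beside the same shares of all genes. Among the 40 artery-like wells with under 10 CPM of the excluded genes the direction of *Bmp6* turned (log2 fold change 3.46). *Bmp4* had 37.2, 8.83, 6.26 and 4.01 CPM in artery-like wells against 92.6 to 212 CPM in vein-like wells. *Eng*, endoglin, and *Id3* overlapped, with artery-like means of 1653 ± 546 and 987 ± 320.4 CPM.

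Leukocyte adhesion and chemokine genes (20 tested) gave 4 genes apart and lower against vein-like wells (20.0%, beside 2.19% of all genes). *Icam1*, the ligand of leukocyte integrins, had 71.3, 141, 493 and 61.9 CPM in artery-like wells and 1007, 1125, 1988 and 1150 CPM in vein-like wells, a log2 fold change of -3.11 ± 0.35 (edgeR adjusted p = 0.230, limma adjusted p = 0.000499). Capillary-like wells, at 52.5 to 140 CPM, overlapped with artery-like wells. *Il6st*, the signalling chain of the interleukin 6 receptor, *Lbp* and *Ch25h* were the others. Without the wells with smooth muscle reads, 2 of 20 were apart and lower (*Icam1* and *Ch25h*). *Cd200*, an inhibitory surface ligand, was higher than in vein-like wells at 624 to 871 CPM against 302 to 384 CPM. Against capillary-like wells only *Ackr4*, an atypical chemokine receptor, was apart, at 8.35 to 31.3 CPM. Each was 1 of 20 genes, beside 1.02% and 1.04% of all genes. When wells with smooth muscle reads were left out, neither *Cd200* (833 against 429 CPM) nor *Ackr4* was apart in these comparisons. *Cxcl1* and *Il6st* were then apart and higher against capillary-like wells. *Nfkbia*, an inhibitor of NF-kappaB and the member with the highest level, averaged 1117 ± 391, 772 ± 224 and 1431 ± 477 CPM in artery-like, capillary-like and vein-like wells. The rule for vein-like wells used the adhesion genes *Selp* and *Sele*, which are left out of these counts.

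None of 24 capillary lipid and transport genes outside the score was apart from capillary-like wells, beside 1.04% of all genes higher and 1.58% lower. Against vein-like wells 2 were apart and lower, beside 2.19% of all genes. *Fabp5*, a fatty acid-binding protein, averaged 53.8 ± 46.1 CPM in artery-like and 170 ± 136 CPM in capillary-like wells with overlap, and was apart and lower than the 165 to 236 CPM of vein-like wells. Without the wells with smooth muscle reads it was no longer apart, at 49.9 against 100.9 CPM. *Plvap*, which forms the diaphragms of fenestrae and caveolae, had 2745, 2143, 1420 and 906 CPM in artery-like wells and 4000 to 4463 CPM in vein-like wells. Against capillary-like wells its direction differed between the replicates, with log2 fold changes of 0.86 in replicate 1 and -1.58 in replicate 2. *Ly6c1* overlapped in both comparisons.

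Of 18 shear response genes, 1 was apart, the water channel gene *Aqp1*, which was lower against vein-like wells (beside 2.19% of all genes). The highest members, *Txnip* and *Slc9a3r2*, averaged 1816 ± 359.6 and 1112 ± 321 CPM in artery-like wells and were not apart. *Aqp1* had 1490, 715, 438 and 625 CPM in artery-like wells. Vein-like wells had 2395 to 2661 CPM and lay apart. Capillary-like wells had 3903, 4014, 1473 and 1366 CPM, of which those of replicate 2 lay below the highest artery-like plate, although within each replicate the artery-like plates were lower. The limma adjusted p was 0.000182 and 6.6e-06, and edgeR's was 0.786 and 0.649. *Aqp1* was read in 65.6% of artery-like wells at 20000 reads, against 91.7% and 92.6% in the other classes.

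In all, 35 genes were apart and higher and 42 apart and lower in both comparisons, and 7 of the 35 were read in at least 25% of artery-like wells at 20000 reads. Except for those with the smallest p, the genes from here to the promoter windows were picked with their values known. *S100a4* (chromosome 3, 90603771 to 90606045), a small calcium-binding protein, had the smallest p against capillary-like wells. Its levels were 171, 151, 234 and 305 CPM in artery-like wells, 7.80, 28.2, 45.1 and 21.6 CPM in capillary-like wells and 23.3, 19.7, 67.1 and 29.5 CPM in vein-like wells. By replicate the log2 fold changes were 3.21 and 3.26 against capillary-like and 2.96 and 2.41 against vein-like wells (edgeR adjusted p of 0.786 and 0.578, limma adjusted p of 0.00955 and 0.00311). *S100a4* overlaps the gene model Gm42674, which behaved likewise, and the reads of the pair cannot be told apart with certainty. At 20000 reads *S100a4* was read in 47.5% of artery-like wells, against 12.4% and 17.6%. Among the 40 artery-like wells with under 10 CPM of the excluded genes, the direction of *S100a4* against vein-like wells turned (log2 fold change -0.62).

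*Prom1*, the membrane glycoprotein prominin 1, had 308, 419, 352 and 613 CPM in artery-like wells, with highest plates of 237 CPM in capillary-like and 164 CPM in vein-like wells. Some rarer transcripts stood higher in artery-like than in capillary-like and vein-like wells, while wells of no class were not compared. *Lrrc3b*, a leucine-rich repeat gene, had 36.0, 128, 121 and 45.8 CPM, against at most 10.0 CPM in capillary-like and 0.372 CPM in vein-like wells, and came from 12 of 122 wells at 20000 reads. *Tox2*, an HMG-box transcription factor, had 15.98, 124, 59.2 and 40.8 CPM and under 1 CPM on all other plates, in 13 wells. *Gper1*, a G protein-coupled oestrogen receptor, had 48.2 to 95.6 CPM in 9 wells. *Tbx1*, a T-box factor also used as a lymphatic marker, had 20.0 to 54.8 CPM in 9 wells. Levels of these genes rest on few wells.

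Promoter windows are printed for genes apart from both other classes, *S100a4*, *Atp2a3* and *Lrrc3b*, as the 250 bases before the RefSeq start on GRCm38.p6. They lie at chr3:90603520-90603769 (plus strand), chr11:72960919-72961168 (plus strand) and chr14:15438988-15439237 (minus strand). Capitals mark matches to TGGGAA, the core of the motif of RBPJ, the DNA-binding partner of Notch, and to ACAAT, a core of SOX motifs, on either strand.
S100a4: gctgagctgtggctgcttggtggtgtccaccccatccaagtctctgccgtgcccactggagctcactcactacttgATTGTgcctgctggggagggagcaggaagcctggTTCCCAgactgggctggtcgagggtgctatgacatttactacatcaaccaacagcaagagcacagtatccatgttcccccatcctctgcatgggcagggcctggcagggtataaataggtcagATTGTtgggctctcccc
Atp2a3: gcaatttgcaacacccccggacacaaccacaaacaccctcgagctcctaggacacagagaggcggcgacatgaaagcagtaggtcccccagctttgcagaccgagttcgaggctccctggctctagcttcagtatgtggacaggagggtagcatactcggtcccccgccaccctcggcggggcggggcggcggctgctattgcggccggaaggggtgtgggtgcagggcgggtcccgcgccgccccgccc
Lrrc3b: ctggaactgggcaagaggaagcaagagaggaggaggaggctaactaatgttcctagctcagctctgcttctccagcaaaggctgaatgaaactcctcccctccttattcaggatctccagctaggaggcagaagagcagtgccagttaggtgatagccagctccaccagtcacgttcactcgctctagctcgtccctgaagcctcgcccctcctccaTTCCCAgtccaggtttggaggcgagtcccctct
The *S100a4* window held 1 match of the RBPJ core and 2 of the SOX core, that of *Lrrc3b* 1 match of the RBPJ core and that of *Atp2a3* none. Of the genes apart and higher in both comparisons, 26 matched a RefSeq promoter, and 23.1% of these windows held each core, beside 21.6% (RBPJ core) and 27.7% (SOX core) of all 32817 windows of that length. A match is a run of letters and was not tested for binding.

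Apart from genes already named, the 15 smallest p against capillary-like wells belonged to *Stc1*, *Fosb*, *Errfi1*, *Nr4a1*, *Fhl1*, *Btg2*, *Glul*, *Xist*, *Sulf1*, *Gpcpd1*, *Junb* and *Acer2*, none of which passed (adjusted p = 0.786 in edgeR's test for each). All had positive log2 fold changes. *Fosb*, *Nr4a1*, *Btg2* and *Junb* are immediate early genes. *Stc1*, the secreted glycoprotein stanniocalcin 1, had 225, 360, 308 and 351 CPM in artery-like wells against 36.8 to 129 CPM in capillary-like wells, though its log2 fold change was -0.05 among the 40 artery-like wells with under 10 CPM of the excluded genes. *Fhl1*, a LIM-domain protein, had 388, 574, 518 and 845 CPM and was apart from vein-like wells at 69.5 to 169 CPM.

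Against vein-like wells the smallest p belonged, besides, to *Nt5e*, Gm16587, *Ehd4*, Gm16548, *Pam*, *Cadm3*, *Rsad2* and *Sectm1b*, which did not pass either. *Nt5e*, the ectonucleotidase CD73, had at most 2.56 CPM on any artery-like or capillary-like plate and 203, 148, 130 and 283 CPM in vein-like wells. *Ehd4*, an endosomal ATPase, had 190 to 279 CPM in artery-like and 677 to 1040 CPM in vein-like wells, and *Rsad2*, an interferon-induced gene, was higher than in vein-like wells. Gm16587 and Gm16548 overlap *Selp*, and *Cadm3* overlaps *Ackr1*, which are genes of the vein score, so these rows are not independent of the rule where reads are counted without strand.

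**Figure D4:**
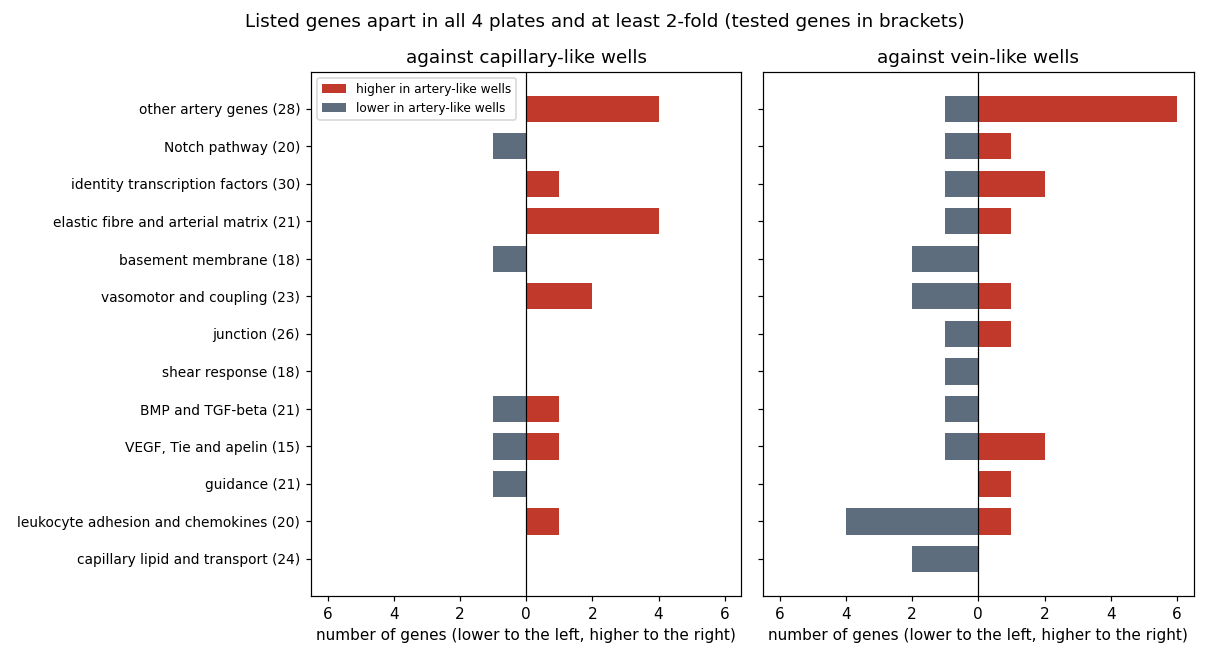
Number of listed genes whose 4 artery-like plate sums lay apart from those of capillary-like (left) or vein-like wells (right) with at least a 2-fold difference of means. Bars to the right count genes higher and bars to the left genes lower in artery-like wells, and the genes tested are in brackets. The list of other artery genes has 4 and 6 genes higher, and the leukocyte list 4 genes lower against vein-like wells.

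Markers of other cell types were checked in the same sums. The 18 smooth muscle and pericyte genes summed to 572 to 2692 CPM on the artery-like plates, 389 to 2299 CPM on the capillary-like and 538 to 1822 CPM on the vein-like plates. *Cnn1*, a defining smooth muscle gene, was at 0 in all 3 classes, and the other 17 genes had reads in each class. At least 10 CPM was reached by 13 of the 18 genes in artery-like wells and by 9 in each other class. Of 16 tested genes 0 were apart in either comparison, beside 1.02% to 2.19% of all genes. Their median log2 fold change was 0.57 against capillary-like and 0.75 against vein-like wells. *Acta2*, *Tagln* and *Myh11* averaged 112 ± 98.3, 159 ± 43.7 and 20.9 ± 24.7 CPM in artery-like wells, 53.1, 121 and 8.41 CPM in capillary-like wells and 71.7, 390 and 5.93 CPM in vein-like wells. By limma *Tagln* was lower than in vein-like wells (adjusted p = 0.00316). Without the wells with at least 100 CPM of any of these, 97 artery-like wells were left, in which *Vegfc*, *Cldn5*, *Prom1*, *Tox2* and *Lrrc3b* were apart and higher in both comparisons, while *S100a4* (237 CPM) and *Atp2a3* (257 CPM) were each apart in 1 comparison and *Fn1* (201 CPM) in none. *Eln* and *Fbn1* averaged 298 and 112 CPM in these wells and were still apart from capillary-like wells. *Dll1*, *Foxc1*, *Itga5* and *Nectin3* were then no longer apart from vein-like wells, nor *Htra1* and *Fosb* from capillary-like wells.

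Fibroblast genes summed to 92.3 to 560 CPM on artery-like plates, against 39.3 to 1395 CPM on the plates of the other classes. Lymphatic genes summed to 226 to 847 CPM on artery-like, 106 to 1014 CPM on capillary-like and 115 to 481 CPM on vein-like plates. Of the 9 lymphatic genes, 8, 6 and 4 reached 10 CPM in the same order. Their median log2 fold change was 0.44 against capillary-like and 1.20 against vein-like wells. In each comparison 3 of the 9 had an unadjusted edgeR p under 0.05, beside 6.01% and 6.43% of all genes tested. Leukocyte genes summed to at most 27.0 CPM in artery-like wells, with *Tyrobp* and *Cd52* at 0, keratinocyte genes to at most 116 CPM and erythrocyte genes to at most 38.9 CPM. Schwann cell genes summed to between 1.25 and 366 CPM on the artery-like plates. Apart from *Tbx1* no gene of these lists was apart in either comparison.

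The 17 dissociation response genes, such as *Fos* and *Zfp36*, summed to 16830 to 30420 CPM in artery-like, 11460 to 20360 CPM in capillary-like and 16840 to 27470 CPM in vein-like wells. Their median log2 fold change was 0.76 against capillary-like wells and 0.03 against vein-like wells, and 12 and 5 of the 17 had an unadjusted p under 0.05, beside 6.01% and 6.43% of all genes tested. *Fosb* was apart from capillary-like wells, and the heat shock genes *Hspa1a* and *Hspa1b*, near-identical copies whose reads may be split, were apart from vein-like wells. Their part in the other differences was not tested.

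**Figure D5:**
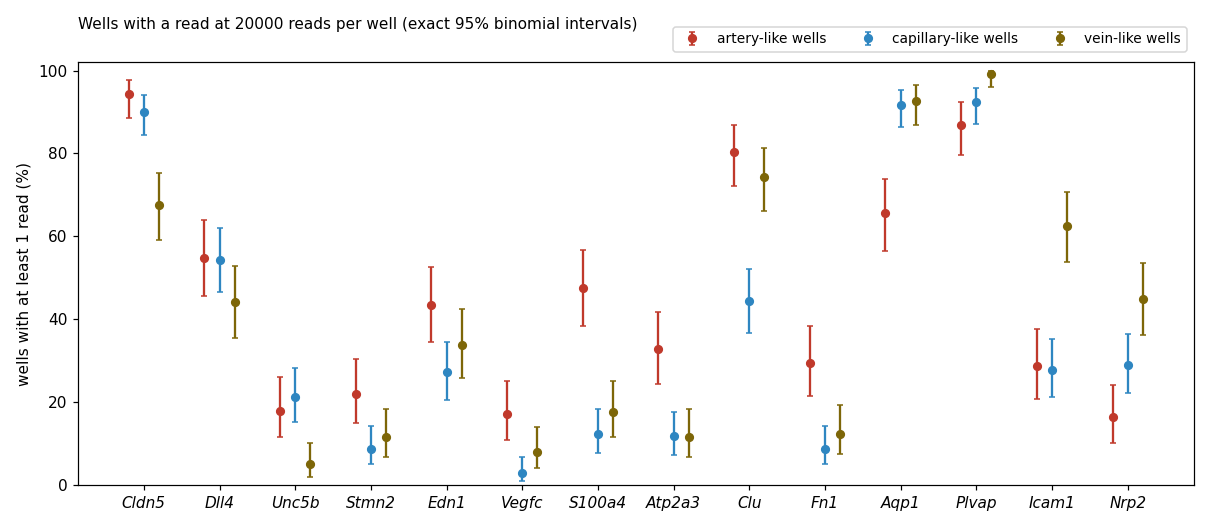
Share of wells with at least 1 read of each gene after each well was drawn down to 20000 reads, for 122 artery-like, 169 capillary-like and 136 vein-like wells, with exact 95% binomial intervals (counting error only). *S100a4*, *Atp2a3*, *Fn1*, *Stmn2* and *Vegfc* were read most often in artery-like wells and *Aqp1*, *Icam1* and *Nrp2* most often in other classes.

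Across the artery-like wells of a replicate, named genes differed in how far they followed the artery score. Spearman's rho between the score and log2(CPM + 1) was 0.29 for *Cldn5* in the 56 wells of replicate 1 and 0.21 in the 66 wells of replicate 2. For *Slc6a6* it was 0.47 and 0.36, for *Edn1* 0.39 and 0.34, and for *Plvap* -0.19 and -0.18. It was near 0 for *Icam1* (0.04 and 0.01), and the values of the replicates lay apart, untested, for *Jag1* (-0.07 and 0.44), *S100a4* (-0.09 and 0.26), *Vegfc* (0.03 and 0.44), *Clu* (0.18 and 0.47), *Fn1* (0.14 and 0.45), *Unc5b* (0.42 and 0.11) and *Stmn2* (0.39 and 0.11). In replicate 2 *Cldn5* had a rho of 0.39 with the reads of a well, above that with the score. These are descriptions across wells of a shared pool, and the score itself had a rho of -0.17 and 0.32 with the reads of a well.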

How the data were processed

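According to the methods and the submitters' processing notes, the authors made Smart-seq2 libraries, read them as single 50-base reads, mapped the reads on mm10 (TopHat2 2.1.1), dropped duplicates (SAMtools 0.1.18) and assigned reads to genes (Subread 1.4.6-p5). What they deposited is a table of whole-number counts for each well, not normalized, over 46517 gene identifiers and 92 spike-ins. Of the identifiers, 46005 have a symbol in GENCODE vM21. The counting annotation and its strand setting are not given in the sources used here, so overlapping genes cannot be told apart.

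Doublets were not called beyond the limit of 8000 genes. Well counts were added up by replicate and class (artery-like, capillary-like, vein-like and no class), which gave 8 sums and 3 residual degrees of freedom. edgeR 4.0.16 (TMM scaling, quasi-likelihood, replicate block) was run on genes reaching 10 counts in 2 or more sums, with Benjamini-Hochberg adjustment and a threshold of 0.05. The 32 genes of the rule were counted in library sizes but not tested. DESeq2 1.42.0 used the same sums, and limma 3.58.1 used log2(CPM + 1) averaged over wells. Plate levels are CPM of plate sums. Shares of wells with a read follow random drawing to 20000 reads. Intervals cover counting error only, as PCR reads are not independent molecules. The code was tested on simulated data, under R 4.3.3 and Python 3.11.15.

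Members, lists and tests were chosen with earlier results of these data known. The text names 20 genes in any case, the 15 smallest p of each comparison where fewer than 5 genes pass, and the 2 members of each pathway list with the highest artery-like level. Listed genes that were apart, and genes apart in both comparisons, were picked with their values known.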

Additional observations from a re-analysis of the deposited data

Results flagged for a closer look

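Of 55 levels of artery-like wells tested over the 4 plates, 3 had a plate far from the others by Dixon's test, and chance flags about 1 in 20. *Klf4* stood at 391.7 CPM on plate 2B (ratio 0.843). *Nr4a1*, an immediate early gene, stood at 3754 CPM on plate 2A (ratio 0.855), and *Gpcpd1* at 655.1 CPM on plate 2B (ratio 0.857).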

How the results depend on the processing

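A margin of 0.5 left 79 artery-like wells (12.5% of the kept wells) and a margin of 0 gave 28.0%. With z values over both replicates together, 36 and 90 wells of replicates 1 and 2 were artery-like in place of 56 and 66. Without either replicate the share ran from 16.6% to 22.4%. With the 5 excluded genes limited to under 10 CPM, 40 artery-like wells were left, 38 of them in replicate 2. Calls against capillary-like wells were 405 by DESeq2, 9 by limma and 0 in the other fits. Against vein-like wells they were 436 by DESeq2, 210 by limma, 15 with plate sums and plates as blocks, 3 with wells drawn to 20000 reads, 2 at a margin of 0.5, 1 (*Cldn5*) with no filter on low counts and 0 in the others, among them the fit without the replicate block. The cause of these differences was not tested. With 1 replicate left, and so 2 plates against 2, genes apart and higher numbered 1420 to 1901 and genes lower 2015 to 2478 against capillary-like wells, and 1352 to 1828 and 2328 to 2447 against vein-like wells. Elsewhere these counts stayed within 1.5 times, but 57 to 155 of the 170 genes higher against capillary-like wells and 47 to 144 of the 166 against vein-like wells were the same genes. Under the 10 CPM limit the log2 fold change against capillary-like wells turned to -3.14 for *Vegfc*, 3.46 for *Bmp6*, -0.05 for *Stc1* and -0.99 for *Gxylt1*, and that against vein-like wells to -0.62 for *S100a4*, -0.59 for Gm42674, -1.73 for *Scn3a*, -0.17 for *Ambra1* and -1.91 for *Cand1*. It also turned for *Cry1* with limma (-0.048, capillary-like) and for *Fzd3* at a margin of 0.5 (-0.79, vein-like). Of 1801 fold changes under alternatives, 11 turned and 124 passed a threshold that they had missed. No plate comparison could be made under the 10 CPM limit.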
